A study of Homo sapiens with 30 samples.

Results

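The comparison described here set U2OS cells that carried a p53 shRNA and had received 5 Gy of ionizing radiation against U2OS cells that carried a control shRNA and had received the same dose. Its group means come from 6 of the 30 arrays of the series, chosen by their titles. These are 3 for the p53 shRNA at 5 Gy and 3 for the control shRNA at 5 Gy. The spread used in its test came from 24 arrays fitted together. U2OS is a human osteosarcoma line with a working p53 gene. All cells of both groups had been infected with a pSIREN retrovirus, which makes a short hairpin RNA (shRNA) that lowers the transcript it matches; one retrovirus carried the p53 hairpin (labelled pSIREN p53) and the other a negative control (pSIREN neg). Infection preceded the dose from a caesium source by 2 days, and total RNA was taken 4 h after the dose. The other arrays used below hold the same shRNA pair without radiation (0 Gy, p53 shRNA and control shRNA), and cells that carried an NFBD1 shRNA (pSIREN NFBD1sh b) with or without the p53 shRNA at 5 Gy, or the NFBD1 shRNA alone at 0 Gy, 3 arrays each. The labels name a single p53 hairpin, and they do not say whether replicates came from separate cultures, so p-values measure only the spread between these samples.

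RNA was read on single-colour Illumina bead arrays. A gene was tested where at least 1 of its probes was detected (detection p under 0.01) on 3 or more of the 24 arrays of the first experiment, which gave 12419 of 18665 genes with a named probe; the brightest such probe stands for the gene. Over the 6 arrays compared, 36.8% to 38.5% of probes were detected. Values are background-corrected, quantile-normalized log2 intensities that include an added offset of 16, so differences of dim genes are understated, and the level of one gene cannot be set against that of another. The number of arrays limits the precision. Of 16 osteoblast and mesenchymal markers with a probe, 11 were detected on all 6 arrays, among them RUNX2, ALPL, SPP1, VIM and CDH11, while SP7, IBSP, COL1A2, DLX5 and MSX2 were detected on none. Of 13 blood markers, LYZ and CD34 were detected on all 6 arrays and PTPRC, CD3E, HBA1 and SPI1 on none. The other blood markers with a probe were detected on 2 to 4 of the arrays. Of 15 epithelial markers 6 were detected on all 6 arrays (CDH1, EPCAM, KRT8, KRT18, OCLN and MUC1) and 6 on none. Of 15 neural markers 6 were also detected on all 6 arrays and 6 on none. No member of these lists, or of the epithelial (8 genes tested) and neural (7 genes tested) lists, passed the test. The transcript of p53 was not analysed here, so the knockdown was not checked on the targeted transcript.

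p53 is a transcription factor that is held low by the ubiquitin ligase MDM2 in unstressed cells. DNA double-strand breaks activate the kinase ATM, which stabilises p53, and p53 then binds its sites near target genes and raises their transcription. Its targets arrest the cell cycle, repair DNA, promote apoptosis, tune metabolism and, through MDM2 and the phosphatase PPM1D, switch the response off again.

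In irradiated cells many more genes were lower than higher with the p53 shRNA. Of 12419 genes, 87 (0.701%) passed the test (limma across all genes, Benjamini-Hochberg adjusted p under 0.05). Among them 75 (0.604%) were lower and 12 (0.0966%) higher with the p53 shRNA. The median log2 change of all genes was 0.01, and 46.8% of them lay below 0. The groups did not overlap for any of the 87, but this was also true of 14.5% of all genes. Fewer genes were called when 1 array was left out: the count lay between 36 and 57, and 29 of the 87 genes passed in each of these 6 fits. Each of these fits also has fewer arrays, and whether the lost calls depend on particular arrays was not tested. The fewest were called without p53 shRNA replicate 1 (36), followed by p53 shRNA replicate 3 (46), control replicate 3 (49), control replicate 2 (51), p53 shRNA replicate 2 (55) and control replicate 1 (57). The arrays lie on 4 chips, of which chips 1 and 3 hold both groups; with the chip as a block 179 genes passed, 141 lower and 38 higher, and all 87 were among them.

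p53 target genes held the largest falls. The lists were chosen with earlier results of these data known, so the counts that follow describe the lists and do not test them. Of 108 listed targets, 94 were tested, and 25 of these fell while none passed as higher, against 0.604% of all genes lower. Their median log2 change was -0.42, and 82 of the 94 (87.2%) lay below 0. Within chip 1 the median was -0.47 and within chip 3 it was -0.53. The number of falls among the 94 lay between 19 and 23 when 1 array was left out. Among the 14 targets not tested, BBC3, PLK3 and IGFBP3 had a probe that did not pass detection.

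**Figure D1:**
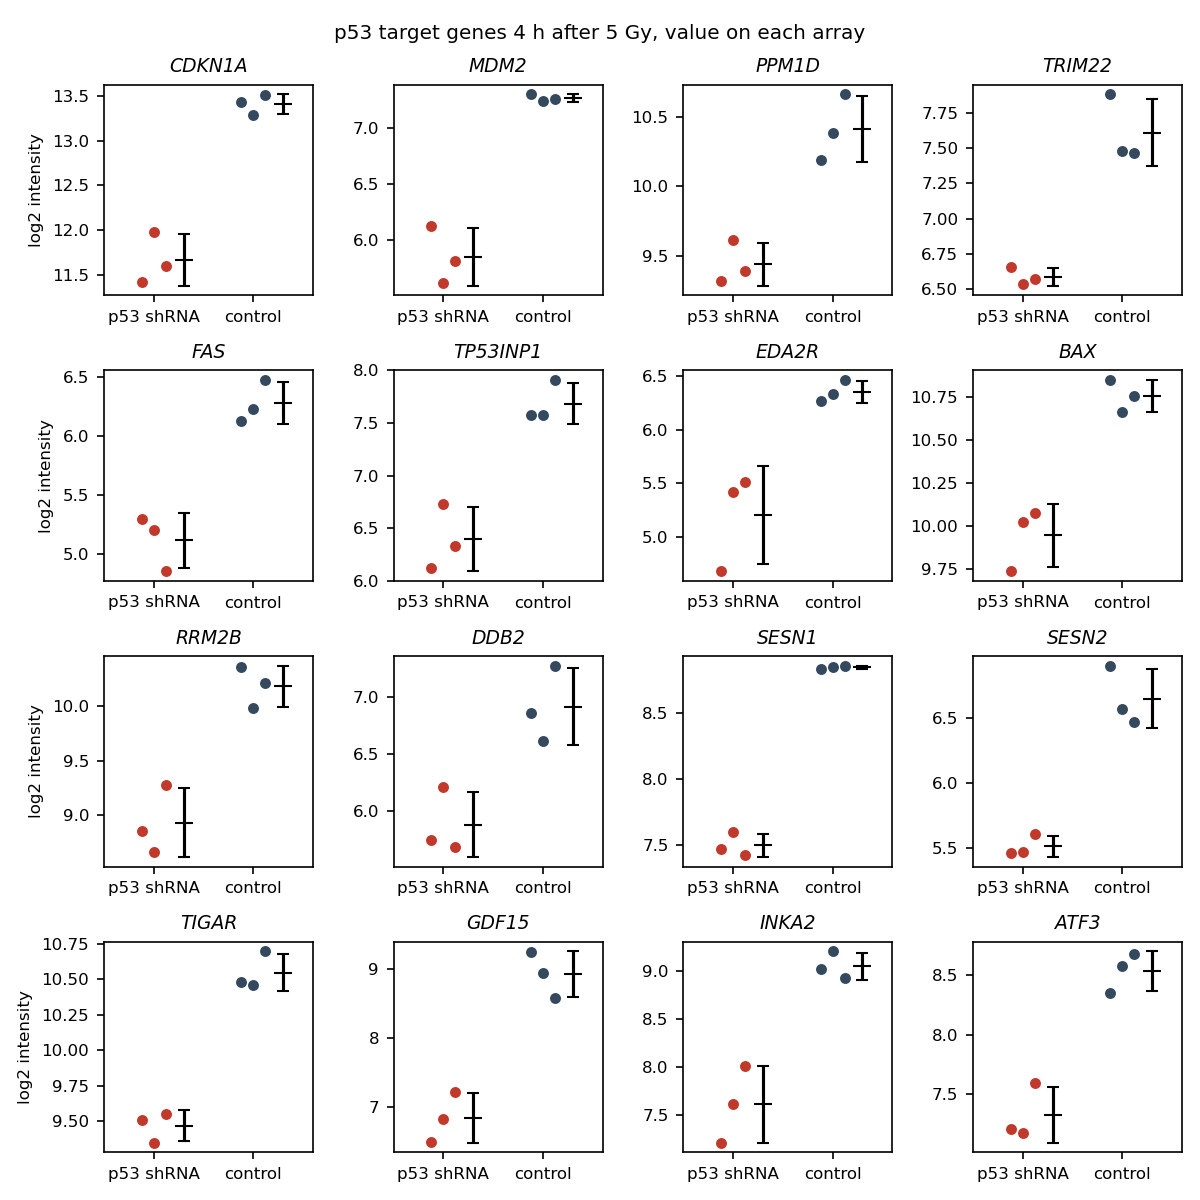
Background-corrected, normalized log2 intensity of 16 called p53 target genes on each array 4 h after 5 Gy, with the 3 p53 shRNA arrays in red on the left and the 3 control shRNA arrays in dark grey on the right of each panel. Black bars give the mean and SD; each panel has its own vertical axis, and in all 16 panels every p53 shRNA array lies below every control array.

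The first group of targets acts in cell cycle arrest and in p53's own feedback loop, and 4 of its 17 tested genes fell (median log2 change -0.51). CDKN1A encodes p21, the inhibitor of cyclin-dependent kinases that carries p53's G1 arrest. Its log2 intensity was 11.42, 11.98 and 11.60 on the p53 shRNA arrays and 13.43, 13.29 and 13.51 on the control arrays. The groups lay far apart relative to their spread, at 11.67 ± 0.29 with the p53 shRNA and 13.41 ± 0.11 with the control shRNA (SD, n = 3 each). The log2 change was -1.74 ± 0.18 (SE, as for all changes below), 3.35-fold lower, with a limma adjusted p of 2.39e-05, and a second probe gave -1.92. MDM2, p53's own ubiquitin ligase, had 6.12, 5.61 and 5.80 on the p53 shRNA arrays and 7.31, 7.24 and 7.26 on the control arrays. The control arrays were nearly identical, and the log2 change was -1.43 ± 0.22 (limma adjusted p = 0.000963).

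PPM1D encodes WIP1, the phosphatase that dephosphorylates p53 and ATM substrates. Its log2 intensity was 9.31, 9.61 and 9.39 with the p53 shRNA and 10.19, 10.39 and 10.67 with the control shRNA. No p53 shRNA array reached the lowest control array, and the log2 change was -0.98 ± 0.12 (limma adjusted p = 0.00012). TRIM22, an interferon- and p53-responsive ubiquitin ligase, fell by 1.02 on the log2 scale, to 6.59 ± 0.06 with the p53 shRNA, against 7.61 ± 0.24 with the control shRNA. Several well-known members did not pass. GADD45A, a sensor of genotoxic stress, had a log2 change of -0.51, CCNG1, encoding cyclin G1, had -0.69, and ZMAT3, an RNA-binding protein, had -0.72 (limma adjusted p 0.154, 0.355 and 0.781). MDM4, the partner of MDM2, stood at -0.06 and SFN, encoding 14-3-3 sigma, at 0.04.

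Of 19 tested genes of death receptors and apoptosis, 7 fell (median log2 change -0.45). TP53INP1, a nuclear protein that promotes p53's apoptotic activity, had 6.13, 6.73 and 6.33 on the p53 shRNA arrays and 7.57, 7.57 and 7.91 on the control arrays. The gap between the groups exceeded either group's range, and the log2 change was -1.29 ± 0.28 (limma adjusted p = 0.0277); it lost its call in 5 of the 6 fits that leave out 1 array. FAS, the death receptor for FAS ligand, had 5.30, 5.20 and 4.85 with the p53 shRNA and 6.13, 6.23 and 6.48 with the control shRNA. Its log2 change was -1.16 ± 0.21, 2.23-fold lower. EDA2R, a receptor of the tumour necrosis factor family, had 4.68, 5.42 and 5.51 with the p53 shRNA, where replicate 1 was lowest, and 6.27, 6.33 and 6.47 with the control shRNA.

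BAX, the pore-forming member of the BCL2 family, fell by 0.81 on the log2 scale, at 9.95 ± 0.18 with the p53 shRNA and 10.76 ± 0.09 with the control shRNA. It passed the test with all 6 arrays (limma adjusted p = 0.0347) but in none of the 6 fits that leave out 1 array, where its adjusted p lay between 0.0651 and 0.222. TRIAP1, a small mitochondrial inhibitor of apoptosis, fell by 0.74 with tight groups: 9.32, 9.31 and 9.29 with the p53 shRNA and 10.13, 10.08 and 9.93 with the control shRNA. NINJ1, a protein of plasma membrane rupture, fell by 0.72, and AEN, a nuclease that digests DNA in apoptosis, by 0.59. PMAIP1 (NOXA), a BH3-only protein, and PERP, a membrane protein of p53-dependent apoptosis, both had log2 changes of -0.12, and TNFRSF10B, a receptor of TRAIL, had -0.60; none of these passed.

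Among 7 tested targets in DNA repair, 3 fell, and their median log2 change was -0.72. RRM2B, the p53-induced subunit of ribonucleotide reductase that makes deoxynucleotides for repair, had 8.86, 8.66 and 9.28 with the p53 shRNA and 10.35, 9.98 and 10.21 with the control shRNA. Its log2 change was -1.25 ± 0.17 (limma adjusted p = 0.000456). DDB2 and XPC recognise DNA lesions in global-genome nucleotide excision repair, and both fell, by 1.03 and 0.76 on the log2 scale. DDB2 stood at 5.75, 6.20 and 5.68 with the p53 shRNA and at 6.85, 6.61 and 7.27 with the control shRNA, so that the nearest arrays of the groups were close. XPC was tighter, with 8.61 ± 0.09 in p53 shRNA cells and 9.37 ± 0.10 in control cells. POLH, the translesion polymerase eta, had a log2 change of -0.72 and did not pass (limma adjusted p = 0.136).

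Of 21 tested metabolic targets 5 fell, and their median log2 change was closer to 0 than that of the other p53 lists, at -0.23. SESN1, a sestrin that restrains mTORC1, had the smallest p of all genes. It stood at 7.48, 7.60 and 7.43 on the p53 shRNA arrays and at 8.83, 8.85 and 8.86 on the control arrays. The log2 change was -1.35 ± 0.11, 2.55-fold lower (limma adjusted p = 2.47e-07). Its paralogue SESN2 had 5.46, 5.47 and 5.61 with the p53 shRNA and 6.90, 6.57 and 6.47 with the control shRNA, a log2 change of -1.14. SESN2 was also the only gene of 31 tested in the ER stress and amino acid response list that was called without a chip block; DDIT3 of that list, encoding CHOP, had -0.51 and did not pass (limma adjusted p = 0.124).

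TIGAR, a phosphatase that lowers glycolytic flux, had 9.51, 9.35 and 9.55 with the p53 shRNA and 10.48, 10.46 and 10.70 with the control shRNA. The fall of 1.08 on the log2 scale compares with SDs of 0.11 in p53 shRNA cells and 0.13 in control cells. DRAM1, a lysosomal protein of p53-dependent autophagy, fell by 1.00 and ACAD11, an acyl-CoA dehydrogenase, by 0.70. SCO2, a cytochrome c oxidase assembly factor described as a p53 target, had a log2 change of 0.33 and GPX1, a glutathione peroxidase, of -0.15; neither passed (limma adjusted p 0.648 and 0.867).

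The targets in growth and stress signalling included the gene with the largest fall of all, and 6 of 30 tested fell (median log2 change -0.44). GDF15, a secreted stress cytokine of the TGF-beta superfamily, had 6.49, 6.82 and 7.22 on the p53 shRNA arrays and 9.24, 8.94 and 8.58 on the control arrays. The log2 change was -2.08 ± 0.24, 4.22-fold lower (limma adjusted p = 6.95e-05). It was -2.75 within chip 1 and -1.76 within chip 3. INKA2, an inhibitor of the kinase PAK4, had 7.21, 7.62 and 8.01 with the p53 shRNA and 9.02, 9.20 and 8.92 with the control shRNA. All 3 of its probes were lower in p53 shRNA cells.

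ATF3, a stress-induced transcription factor of the ATF/CREB family, fell by 1.21 on the log2 scale, at 7.20, 7.17 and 7.59 with the p53 shRNA and 8.35, 8.58 and 8.68 with the control shRNA. PHLDA3, which competes with AKT for membrane lipids, fell by 1.19, CYFIP2, a subunit of the WAVE actin regulatory complex, by 1.14, and RPS27L, a ribosomal protein paralogue, by 0.80. For RPS27L the arrays were close to each other in both groups, at 12.91 ± 0.06 with the p53 shRNA and 13.71 ± 0.02 with the control shRNA. THBS1, encoding thrombospondin 1, was the listed member farthest above 0, at 0.41, and did not pass (limma adjusted p = 0.783).

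When the chip was fitted as a block, 37 of the 94 targets were called lower, against 141 of all 12419 genes in that fit. THBS1 was called higher (log2 change 0.62), as were 38 of all genes. The 12 further lower calls included DDIT4, a stress-induced inhibitor of mTORC1 (log2 change -1.22 with the chip block and -0.57 without it), ANKRA2 (-0.97), CCNG2, encoding cyclin G2 (-0.91), POLH (-0.80), APAF1, the core of the apoptosome (-0.70), TNFRSF10B (-0.63) and GADD45A (-0.56). These genes were read from the chip-blocked fit alone and had adjusted p-values between 0.000106 and 0.0352 in it.

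**Figure D2:**
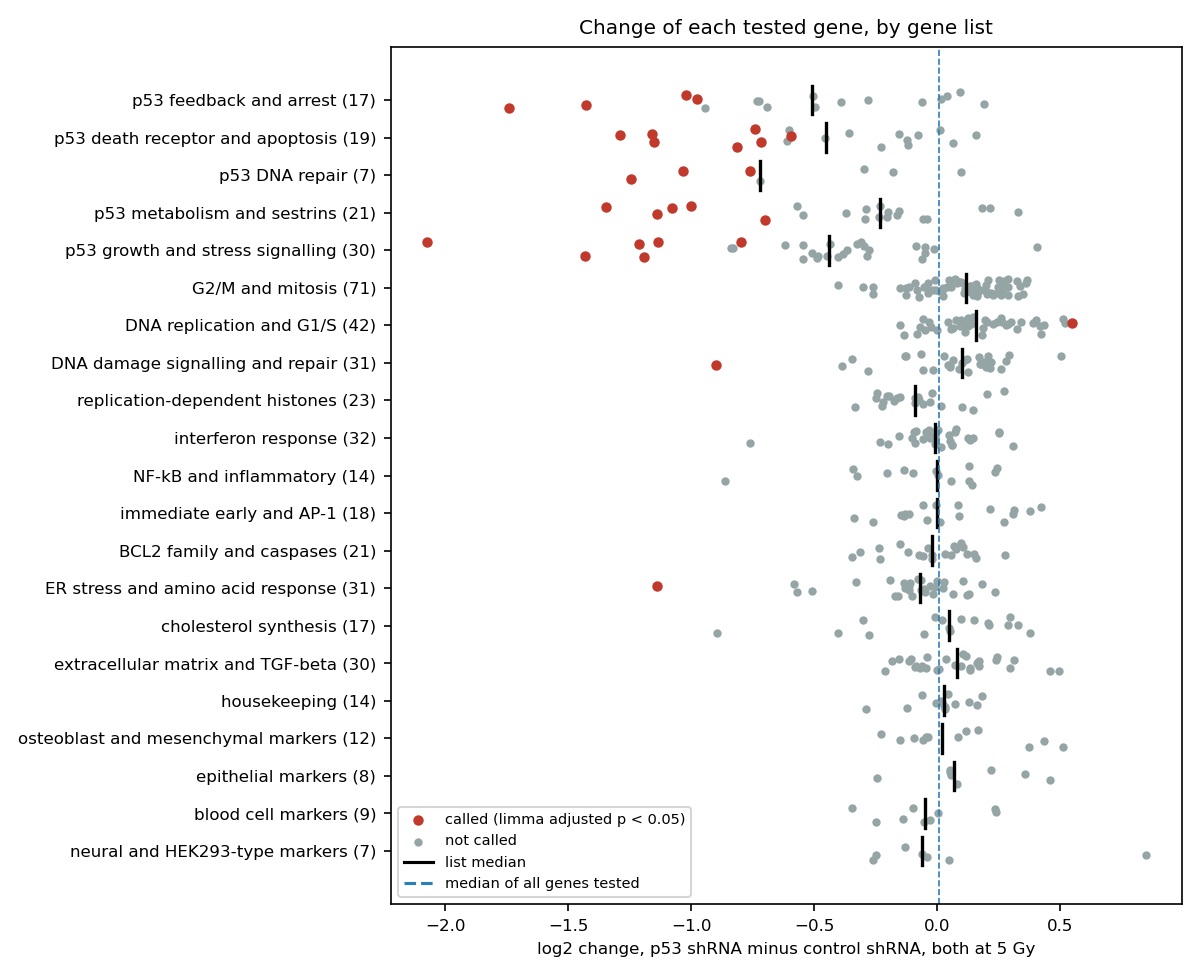
Log2 change of each tested gene (p53 shRNA minus control shRNA, both at 5 Gy) in 21 gene lists, with the number of genes tested in parentheses. Red points passed the test, grey points did not, black bars are list medians and the dashed line is the median of all genes; outside the 5 p53 lists the red points are CDC25A, MSH6 and SESN2, which is also on a p53 list.

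Genes outside the p53 lists made up 50 of the 75 falls, and whether any of these are p53 targets was not tested. By size of change these began with ACTA2, smooth-muscle actin, which had 7.15, 7.05 and 7.56 with the p53 shRNA and 8.74, 8.53 and 8.68 with the control shRNA. Its log2 change was -1.39 ± 0.21 (limma adjusted p = 0.000774). ACTA2 lies next to FAS on chromosome 10 in the RefSeq annotation and overlaps it. SUGCT, a mitochondrial CoA-transferase of glutarate metabolism, fell by 1.36, with control replicate 1 at 9.64 above the other control arrays at 8.77 and 8.81; it passed in none of the 6 fits that leave out 1 array. MSH6, a subunit of the mismatch recognition complex, was the only called gene of 31 tested in DNA damage signalling and repair, at 11.04, 11.12 and 11.18 with the p53 shRNA and 12.12, 11.87 and 12.05 with the control shRNA. MDC1 itself, the gene that the NFBD1 hairpin targets, had a log2 change of -0.28 (limma adjusted p = 0.86).

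Further falls outside the lists are named here after their values were seen. F2RL2, a thrombin receptor, had 7.84, 8.05 and 7.81 with the p53 shRNA and 8.84, 9.02 and 9.03 with the control shRNA, with an adjusted p (limma, 2.58e-05) close to that of CDKN1A. CD70, the ligand of the lymphocyte receptor CD27, fell by 1.01, PLAGL1, a zinc-finger transcription factor, by 1.01, and FBXW7, the substrate receptor of a ubiquitin ligase, by 0.76. One of the 3 FBXW7 probes stood at 0.02, while another gave -0.88. CXADR, the coxsackievirus and adenovirus receptor, fell by 0.99, UBL3, a membrane-anchored ubiquitin-like protein, by 0.91, and RAD21, a cohesin subunit, by 0.79. GRHL3, an epithelial transcription factor, was not well above background on any p53 shRNA array and was at least 1.12-fold lower there. For that bound the p53 shRNA side is taken, array by array, as the probe's own value or the dimmest detected probe, whichever is brighter. GRHL3 was detected on all 3 control arrays at 5 Gy, which by themselves meet the detection filter. Its call is therefore not separate from that filter, and no p-value is given.

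The 12 rises had log2 changes of 0.43 to 0.83 with a median of 0.64, against a median of -0.82 for the 75 falls. GCNT1, an enzyme of O-glycan branching, had 6.87, 6.64 and 6.70 with the p53 shRNA and 6.05, 5.81 and 6.08 with the control shRNA (0.76). SLC30A2, a zinc transporter, had 5.72, 5.46 and 5.66 with the p53 shRNA and 5.03, 4.76 and 4.80 with the control shRNA (0.75); it was detected on 1 of 3 control arrays. CDK5R1, the activator of CDK5, had 8.22, 8.36 and 8.48 with the p53 shRNA and 7.77, 7.83 and 7.55 with the control shRNA. It had the smallest p of the rises (log2 change 0.64 ± 0.11, limma adjusted p = 0.00591). CBX2, a subunit of Polycomb repressive complex 1, rose by 0.74, but its other detected probe stood at 0.04.

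LGR4, a receptor for R-spondins, rose by 0.69 and DICER1, the ribonuclease that matures microRNAs, by 0.64. ETS2, a transcription factor of the ETS family, rose by 0.63, and CDC25A, the phosphatase that activates cyclin-dependent kinases at G1/S, by 0.55. The remaining rises were POLR1C, a subunit shared by RNA polymerases I and III (0.43), SH3RF2, a RING finger protein (0.56), WDCP (0.63) and C11orf96 (0.83). Many of these calls were lost in smaller fits. Between 2 and 7 genes were called higher when 1 array was left out, and 0 with only the 6 arrays in the fit. All of these fits have fewer arrays, and whether particular arrays decided the calls was not tested.

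Of the proliferation genes in the lists for mitosis and DNA replication, CDC25A alone passed the test. None of 71 tested genes of G2/M and mitosis was called, and their median log2 change was 0.12, with 18 of 71 below 0. KIF11, a mitotic kinesin, stood at 0.37 and RACGAP1, a regulator of cytokinesis, at -0.40 (limma adjusted p 0.424 and 0.304). In DNA replication and G1/S, CDC25A was the single called gene of 42, the median was 0.16, and 8 of 42 lay below 0; the licensing factor CDT1 had 0.52 and E2F2 had 0.51 (limma adjusted p 0.274 and 0.209). Replication-dependent histones (23 tested, median -0.09), genes of the interferon response (32, -0.01), of NF-kB and inflammation (14, 0.00), of the immediate early class and AP-1 (18, 0.00) and BCL2 family and caspases (21, -0.02) had no called gene. The same held for cholesterol synthesis (17, 0.05), extracellular matrix and TGF-beta (30, 0.08) and housekeeping genes (14, 0.03).

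Within these lists HMGCS1, an early enzyme of cholesterol synthesis, had a log2 change of -0.90 without overlap of the groups (limma adjusted p = 0.154). When chip was fitted as a block it was called lower (-0.69, limma adjusted p = 0.0203), the single call of the cholesterol list in that fit. BCL2L1, encoding BCL-XL, had -0.34 and BCL2 had -0.24. MYC stood at 0.38 and JUN at 0.42, and TGFBR2, a TGF-beta receptor, at 0.50. RUNX2, a regulator of osteoblast differentiation, stood at 0.51 (limma adjusted p = 0.467).

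The same shRNA contrast was measured without radiation and in cells that also carried the NFBD1 shRNA, with group means from arrays that the comparison above does not share. All 3 comparisons come from the same fit and share its estimate of each gene's spread. The overlaps of their calls are therefore not independent. At 0 Gy 41 genes passed (0.33% of all), 40 of them lower (0.322%), and at 5 Gy with the NFBD1 shRNA 49 passed (0.395%), 45 of them lower (0.362%). Of the 75 falls in irradiated cells, 27 (36%) were also called lower at 0 Gy, which is 67.5% of the 40 lower there. With the NFBD1 shRNA 39 of the 75 (52%) were called lower, 86.7% of the 45. The sign was the same for 74 of 75 at 0 Gy, where 50.6% of all genes lay below 0. With the NFBD1 shRNA it was the same for 75 of 75, where 46.4% of all genes lay below 0. In all 3 comparisons 18 genes were called lower. All 12 rises had the same sign in both other comparisons. None was called higher at 0 Gy (0.00805% of all genes were), and SH3RF2 alone was called higher with the NFBD1 shRNA (0.0322%). Across all 12419 genes, which are not independent replicates, the 5 Gy and 0 Gy changes had a Pearson correlation of 0.49, and the 5 Gy changes with and without the NFBD1 shRNA 0.51.

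**Figure D3:**
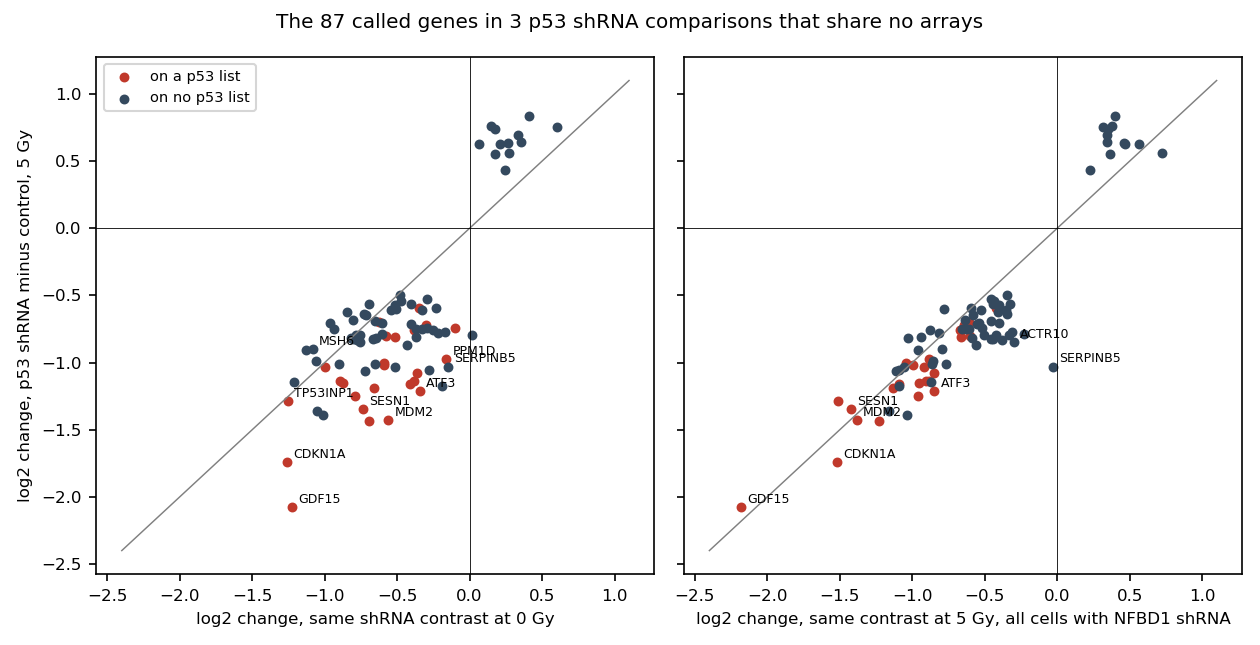
Log2 change of the 87 called genes in irradiated cells (vertical axis, p53 shRNA minus control shRNA at 5 Gy) against the same shRNA contrast at 0 Gy (left) and at 5 Gy in cells that also carried the NFBD1 shRNA (right). Each point is a gene, red if on a p53 list; the grey diagonal marks equal changes, and all red points lie below it in the left panel, while they lie on both sides of it in the right panel.

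For the p53 lists as a whole the changes lay farther below 0 at 5 Gy than at 0 Gy. At 0 Gy 8 of the 94 targets were called lower, with a median log2 change of -0.18, and with the NFBD1 shRNA at 5 Gy 24 were, with a median of -0.38. The change at 5 Gy minus the change at 0 Gy had a median of -0.24 over the 94 targets and lay below 0 for 81 of them. Over all genes it had a median of 0.02 and lay below 0 for 5542 of 12419. No single gene passed the test of that difference after adjustment over all genes (limma, 0 of 12419). An unadjusted p under 0.05 was found for 210 genes (1.69%), among them 15 of the 94. Without any difference a share of 0.05 would be expected, so 210 is fewer than that. With the chip as a fixed block the count was 476. The difference from the effect in NFBD1 shRNA cells had a median of -0.06 over the targets. For it 0 genes passed, and 248 (2%) had an unadjusted p under 0.05, again fewer than expected without any difference.

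PPM1D had the smallest p of the difference from 0 Gy. In unirradiated cells it stood at 9.11, 9.01 and 9.20 with the p53 shRNA and at 9.37, 9.16 and 9.27 with the control shRNA, where the groups overlapped. Its log2 change of -0.98 at 5 Gy thus compares with -0.16 at 0 Gy, a difference of -0.82 ± 0.17 (limma unadjusted p = 9.3e-05). GRHL3 came next, but it was detected on no array of either group at 0 Gy and on none of the p53 shRNA arrays at 5 Gy, so no size is given for its difference. The control arrays at 5 Gy by themselves brought it through the detection filter, so its rank is not separate from that filter. SESN1 differed by -0.61 ± 0.15: it was already lower without radiation, at 6.83, 6.64 and 6.87 with the p53 shRNA and 7.61, 7.31 and 7.63 with the control shRNA. CDKN1A had log2 changes of -1.74 at 5 Gy and -1.26 at 0 Gy, MDM2 had -1.43 and -0.56, ATF3 had -1.21 and -0.34, and TP53INP1 had -1.29 and -1.25.

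The smallest p-values for the difference from the effect in NFBD1 shRNA cells belonged to no listed p53 target. ZNF92, a zinc-finger protein, had log2 changes of 0.57 without and -0.30 with the NFBD1 shRNA and was detected on all arrays of these groups. EPHX2, a soluble epoxide hydrolase, and CIMAP1D came next, with no size given: EPHX2 was detected on 0 of 3 p53 shRNA arrays at 5 Gy, and both were detected on 0 of 3 arrays with the NFBD1 shRNA alone at 5 Gy. None of these 3 genes passed in the 5 Gy comparison itself. SERPINB5, encoding maspin, was called lower in irradiated cells at -1.03 and stood at -0.03 with the NFBD1 shRNA; it was named after its values were seen.

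The called falls were also set against the radiation response of cells that carried the NFBD1 shRNA (5 Gy minus 0 Gy). Its group means use none of the 6 arrays, but its calls use the spread from the same fit. In that comparison 29 genes rose (0.234%) and 65 fell (0.523%). Of the 25 called p53 targets 16 rose after radiation there, with a median log2 change of 0.91. All 25 lay above 0, against 46.3% of all genes. GDF15 rose by 2.10, CDKN1A by 1.53, PHLDA3 by 1.39, TP53INP1 by 1.38, ATF3 by 1.25 and PPM1D by 1.20. RRM2B (0.51), CYFIP2 (0.27), RPS27L (0.23) and ACAD11 (0.25) were not called there.

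Of the 50 called falls outside the p53 lists 8 rose with radiation in those cells, and the median was 0.07. The 8 were F2RL2 (0.89), BLOC1S2 (1.08), CD70 (0.83), PARD6G (0.82), FBXW7 (0.65), LINC02875 (0.81), TENT5A (0.66) and TNFRSF14 (0.65). The other 42 included MSH6 (-0.24), CXADR (-0.12), UBL3 (-0.04) and RAD21 (-0.46). In the p53 shRNA comparison these 50 genes had median log2 changes of -0.78 at 5 Gy and -0.63 at 0 Gy, against -1.14 and -0.59 for the 25 listed targets. The fall was larger at 0 Gy than at 5 Gy for 12 of the 50 and for none of the 25; because the genes were chosen by their call at 5 Gy, larger changes at 5 Gy are partly set by the choice. MSH6 had -0.90 at 5 Gy and -1.08 at 0 Gy, UBL3 had -0.91 and -1.13, and CXADR had -0.99 and -1.06. None of the 12 rises was called in the radiation response, and 11 of them lay below 0 in it, where 46.3% of all genes lay above 0.

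**Figure D4:**
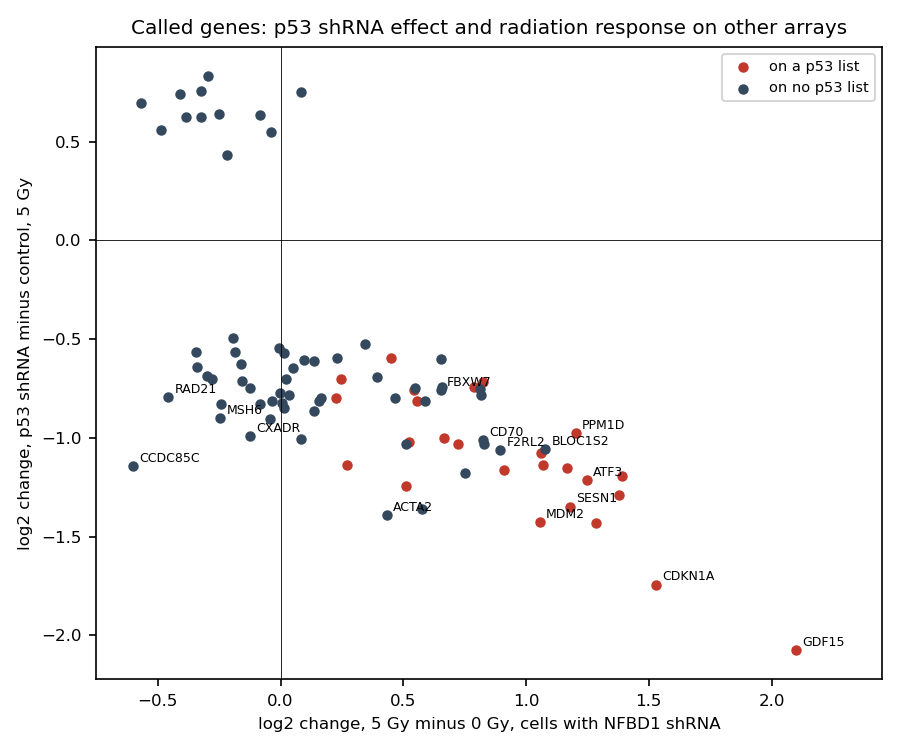
Log2 change of the 87 called genes (vertical axis, p53 shRNA minus control shRNA at 5 Gy) against their log2 change after radiation in cells with the NFBD1 shRNA (horizontal axis, 5 Gy minus 0 Gy, on other arrays). Red points are on a p53 list and all lie right of 0; the grey points of genes outside the lists lie on both sides of 0, among them MSH6 and CXADR.

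Promoter windows were searched for the p53 half-site, the 10-base element of which a full p53 response element holds a pair. Windows ran from 250 bases before to 50 after the annotated start (RefSeq, GRCh38.p14) and were found for 63 of the 75 lowered genes and 10100 of the 12419 tested. A half-site, whose pattern is the same on both strands, lay in 7 of the 63 (11.1%), against 5.28% of tested genes and 6.54% of all 27305 windows. It also lay in 1 of the 10 windows of genes called higher (10.0%) and in 8 of the 79 of tested p53 targets (10.1%). A full site, 2 half-sites with at most 13 bases between them, lay in none of the 63 and in 0.0297% of tested genes. These windows are short, and a match is only a description of the letters. The matches upstream of the start in lowered genes are shown for the listed p53 targets AEN and RPS27L and for ACTA2 and LINC01173, which had the largest falls outside the lists among genes with such a match, with the half-site in capitals and 5′ to 3′ on the gene's strand.
AEN, chr15:88621291-88621330, plus strand: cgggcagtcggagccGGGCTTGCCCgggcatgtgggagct
RPS27L, chr15:63157512-63157551, minus strand: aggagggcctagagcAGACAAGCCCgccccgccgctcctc
ACTA2, chr10:88991532-88991571, minus strand: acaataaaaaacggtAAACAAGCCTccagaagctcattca
LINC01173, chr2:234682638-234682667, plus strand: cagagaggccagttgGGGCATGTTCttttc
The half-site began 34 bases before the start in AEN, 59 in RPS27L, 219 in ACTA2 and 15 in LINC01173. In the p53 shRNA comparison at 5 Gy these genes had log2 changes of -0.59, -0.80, -1.39 and -1.18.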

How the data were processed

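The deposited table holds signal intensity and a detection p-value for each of 48802 probes on each array, not normalized, per the file headers; the authors' deposited log2 values keep the order of that intensity within each array and have a median of 6.951 on every array, and how they were scaled and centred stays unknown. From the intensity, limma 3.58.1 in R 4.3.3 corrected background and normalized 24 arrays (neqc, offset 16). Probes had 1 gene symbol (27577), several (13) or none (21212) in the platform annotation; 27540 matched RefSeq. A linear model over 8 groups with 16 residual degrees of freedom gave each contrast, with Benjamini-Hochberg adjustment over 12419 genes. The test was also tried on simulated data with known changes, in which arrays were drawn independently and without chip effects. A further 60 per-sample columns were not used. No arrays were identical, and replicates correlated at 0.9844 to 0.9935. Members and gene lists were chosen with earlier results of these data known. Named genes were the 12 largest rises and falls, called list members (up to 8 of a p53 list, 4 of another; otherwise the 2 of smallest p as values), MDC1 and the 3 smallest p of each difference, leaving out provisional symbols; others are said to be named after their values were seen. Alternatives changed the background correction, filter, probes per gene, arrays fitted and blocks.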

Additional observations from a re-analysis of the deposited data

How the results depend on the processing

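The call counts for p53 shRNA against control shRNA at 5 Gy (87 genes, 12 higher and 75 lower) moved by over 1.5 times under several settings. A fit on only the 6 arrays compared called 24 genes, 0 higher and 24 lower, with 15 p53 targets; it has fewer samples. With the chip as a fixed block 179 genes were called (38 higher, 141 lower), and as a random block 148 (29 higher, 119 lower; consensus correlation 0.271). The authors' values gave 23 higher, and no filter on detection gave 19 higher. Leaving out 1 array gave 36 to 57 calls, 2 to 7 higher and 34 to 51 lower. Same-numbered arrays of the groups had deviations that correlated at 0.32, 0.09 and 0.22, and differently numbered arrays at -0.39 to 0.13. The value of 0.13 was for p53 shRNA replicate 2 with control replicate 3, which shares its chip. The main fit did not take the numbers as pairs, and whether they mark pairs was not tested. With the replicate block 211 genes were called, 56 higher and 155 lower. The 87 genes were kept with the chip as a fixed block and with the replicate block, 82 with the authors' values and 24 with only the 6 arrays. The difference from the effect at 0 Gy called 1 gene with the authors' values, SESN1 (-0.55, limma adjusted p = 0.00291). No called gene that the text names by the naming rule changed direction in these alternatives, but the median of the interferon response list did, at 0.07 with the chip as a fixed block and -0.01 without it. Apart from the settings' own construction, the cause of these shifts was not tested. The 3 arrays a group limit which changes of small size can be called, and dim probes near background give understated differences.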

Other observations

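With the chip as a block, 92 genes beyond the 87 were called, and several lie outside the lists. CCL3, a chemokine, had a log2 change of -1.23 ± 0.19 (SE) with the chip block (limma adjusted p = 0.00102) and -1.63 without it (limma adjusted p = 0.346); its means were 5.36 in p53 shRNA cells and 6.98 in control cells. CCL3L3, a near-identical gene copy whose probe may share signal with CCL3, had -1.23 as well. AK4, a mitochondrial adenylate kinase, had -1.19 with the chip block and -0.91 without it. These genes were picked after their values were seen.

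ETS2, which rose, and BRWD1, which fell, lie on chromosome 21 with 1 gene between them in the RefSeq annotation. The pair was found by a search of all called genes for near neighbours. ETS2 lost its call in all 6 fits that leave out 1 array, and BRWD1 lost its call in 5 of them. ETS2 had a log2 change of 0.63 and BRWD1, a bromodomain protein, of -0.63, both with the p53 shRNA at 5 Gy. At 0 Gy ETS2 stood at 0.21 and BRWD1 at -0.84.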
